A study of Mus musculus with 6 samples.

Results

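The epidermal growth factor (EGF) family ligands and ERBB receptors were read in 2 mouse malignant mesothelioma cell lines, AC29 and AB1. Mesothelioma arises from the cells that line the chest and abdominal cavities. The members are 10 genes, the ligands Egf, Tgfa, Areg, Ereg, Hbegf, Btc and Nrg1 and the receptors Egfr, Erbb2 and Erbb3. A gene was read from the probe sets whose only gene symbol in the platform annotation was that gene, and the brightest of these by its average on the 6 arrays stood for it. Of the 10 members, 9 were measured in this way, 6 ligands and 3 receptors, with 20 probe sets, out of 18193 genes in all. No probe set carried Areg as its only symbol, so Areg was not analysed here.

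The AC29 group was 3 flasks of a line from a CBA mouse at passage 60, and the AB1 group was 3 flasks of a line from a BALB/c mouse at passage 40. Both host mice were labelled female and 6 to 8 weeks old, and no flask was given a treatment beyond culture in RPMI medium with foetal calf serum. Each line is a single tumour line, so that strain, passage number, tumour and any batch of processing cannot be told apart from the line. RNA was extracted from each flask at 80% confluency and each flask was read on its own Affymetrix array, so that a p-value reflects only how much flasks of the same line vary. Values are log2 RMA intensities, and every difference is AC29 minus AB1 on that log2 scale.

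EGF family ligands are mostly made as membrane-anchored precursors that metalloproteases cut to release a soluble growth factor. The ligand binds an ERBB receptor tyrosine kinase, receptors pair with each other, and the signal passes through adaptors to the RAS and ERK pathway, PI3-kinase and STAT factors. Egfr binds Egf, Tgfa, Areg, Ereg, Hbegf and Btc, while Nrg1 binds Erbb3 and Erbb4. Erbb2 has no known ligand of its own and acts as a partner, and Erbb3 has a weak kinase and signals through its partner. Egfr is widely present in mesothelial and epithelial cells.

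Of the 6 measured ligands, Ereg, Hbegf, Nrg1 and Btc were higher in AB1, by 14.3-fold, 7.19-fold, at least 2.62-fold and 2.67-fold, and Tgfa and Egf did not pass the test. None of the 3 receptors passed. A gene passed, or was called, at an adjusted p under 0.05 in limma (Benjamini-Hochberg over 18193 genes) with an absolute difference of at least 1. For Nrg1 the fold is a lower bound. By that rule 4 of the 9 measured members were called higher in AB1 and 0 higher in AC29, against 5.82% of all genes called higher in AB1 and 5.12% called higher in AC29. At an unadjusted p under 0.05 in limma, 1 member was higher in AC29 and 5 were higher in AB1, against 22.3% and 22.9% of all genes. Without the minimum difference, at an adjusted p under 0.05, 5 of the 9 members passed, against 39.1% of all genes, and the added gene was Erbb3. For 6 of the 9 members the AC29 and AB1 arrays did not overlap, against 50.1% of all genes. The median difference of the 9 members was -0.23, and that of all genes was -0.0047.

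The SD over 3 arrays ran between 0.065 and 0.19 for the members in AC29 and between 0.033 and 0.36 in AB1, where the medians over all genes were 0.12 and 0.090. A floor of 6.07 marked the level under which a signal was not told from background. It is the 95th percentile of 86 probe sets for olfactory, vomeronasal and taste receptors, and a line counted as above it with at least 1 array over it. Of the 9 members 7 were above the floor in AC29 and 8 in AB1.

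**Figure D1:**
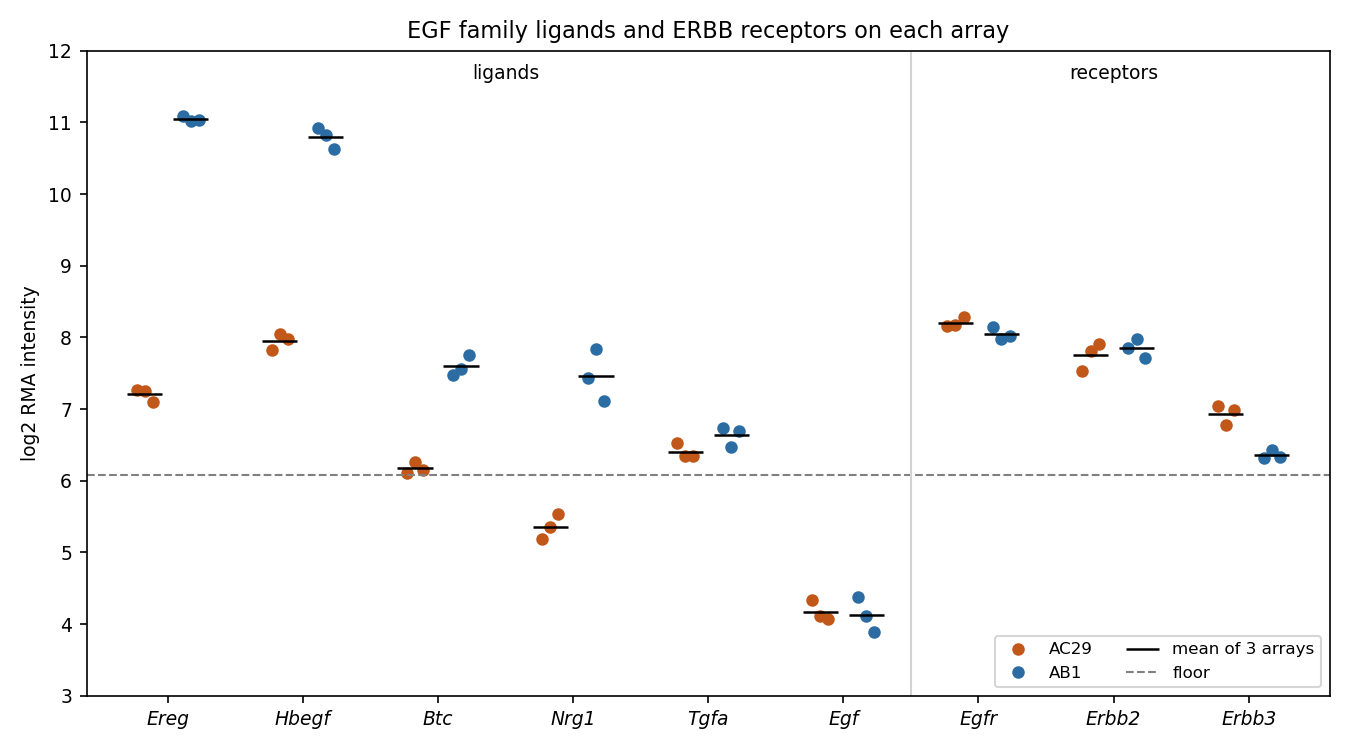
Log2 RMA intensity (y axis) of the 9 measured members on each array, with AC29 in orange at the left of each pair and AB1 in blue at the right, a black bar for the mean of 3 arrays and a dashed line for the floor of 6.07. The AB1 points of Ereg, Hbegf, Btc and Nrg1 all lie above the AC29 points, and the receptors at the right lie close together in both lines.

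Ereg, which encodes epiregulin, a ligand of Egfr and Erbb4, had the largest difference of the members. Its probe set 1419431_at read 7.27, 7.25 and 7.10 in AC29 replicates 13, 14 and 15 and 11.08, 11.02 and 11.03 in AB1 replicates 4, 5 and 6. All AB1 arrays were far above all AC29 arrays, and within a line the arrays were close to each other. The mean was 7.21 ± 0.09 in AC29 and 11.05 ± 0.03 in AB1 (SD, n = 3 each), a difference of -3.84 with a standard error of 0.085 (limma adjusted p = 2.03e-09). It ranked 103 of the 18193 genes when differences are ordered from the AB1 side. The AC29 values lie around 7.23, the 99th percentile of the background probe sets that set the floor, so that the AC29 level is close to background.

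Hbegf encodes heparin-binding EGF-like growth factor, a ligand of Egfr and Erbb4 that also binds heparan sulfate. It read 7.82, 8.04 and 7.98 in AC29 and 10.93, 10.82 and 10.63 in AB1 (probe set 1418350_at). The AC29 arrays were all below the AB1 arrays by a margin many times the spread within a line. The difference was -2.85 with a standard error of 0.105 (limma adjusted p = 4.63e-08). Its other probe set, 1418349_at, read 7.08, 6.97 and 7.13 in AC29 and 9.82, 9.93 and 9.54 in AB1, a difference of -2.70.

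Nrg1 encodes neuregulin, the ligand of Erbb3 and Erbb4, and was read by 1 probe set, 1456524_at. It gave 5.18, 5.35 and 5.53 in AC29 and 7.43, 7.83 and 7.11 in AB1. No AC29 array was above the floor, and all AB1 arrays were, with the widest spread of any member in AB1 (SD 0.36). The difference was -2.11 with a standard error of 0.172 (limma adjusted p = 9.97e-06), and the fold of at least 2.62 is counted from the floor.

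Btc encodes betacellulin, another ligand of Egfr and Erbb4. Its probe set 1435541_at read 6.11, 6.26 and 6.16 in AC29 and 7.48, 7.55 and 7.75 in AB1. The AC29 values lie just above the floor and well under every AB1 value. The difference was -1.42 with a standard error of 0.098 (limma adjusted p = 3.31e-06). The other probe set, 1421161_at, stayed under the floor in both lines, at 3.83, 4.19 and 4.32 in AC29 and 5.68, 5.64 and 6.07 in AB1, and differed by -1.68 in the same direction.

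The ligands Tgfa and Egf did not pass the test. Tgfa, which encodes transforming growth factor alpha, read 6.52, 6.35 and 6.34 in AC29 and 6.73, 6.48 and 6.69 in AB1 (probe set 1450421_at), so that the lines overlapped. Its difference was -0.23, with a 95% interval between -0.46 and -0.0011 (limma adjusted p = 0.109). A second Tgfa probe set near the floor, 1421942_s_at, differed by 0.07, and the third was below the floor. All values of the first Tgfa probe set lie under the 99th percentile of the background probe sets. Egf, the founding member of the family, read 4.33, 4.11 and 4.07 in AC29 and 4.38, 4.11 and 3.88 in AB1, below the floor on every array, and no fold is given.

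Egfr, the receptor of most of these ligands, had 7 probe sets, of which 6 were above the floor in at least 1 line, and none was called. The brightest, 1460420_a_at, read 8.16, 8.17 and 8.28 in AC29 and 8.15, 7.98 and 8.02 in AB1. The AC29 arrays lay above the AB1 arrays by a narrow margin, and the difference of 0.16 had a 95% interval between -0.04 and 0.35 (limma adjusted p = 0.206). The probe sets disagreed in size: 1424932_at read 8.08, 8.00 and 7.99 in AC29 and 7.34, 7.41 and 7.26 in AB1, a 1.61-fold difference. Put in place of the brightest, it differed by 0.68 (limma adjusted p = 0.000141) and stayed under the 2-fold minimum. The remaining ones over the floor gave differences of 0.50, 0.28, -0.0023 and -0.06. No Egfr interval reached a difference of 1 in either direction.

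Erbb2 read 7.54, 7.81 and 7.91 in AC29 and 7.86, 7.97 and 7.72 in AB1. The lines overlapped, and the difference of -0.10 had a 95% interval between -0.36 and 0.17 (limma adjusted p = 0.587). Erbb3, the receptor of Nrg1, read 7.04, 6.77 and 6.99 in AC29 and 6.31, 6.43 and 6.33 in AB1 (probe set 1434606_at). Every AC29 array was above every AB1 array, and the 1.49-fold difference of 0.58, with a 95% interval between 0.36 and 0.80, stayed under the 2-fold minimum (limma adjusted p = 0.00107). All of these Erbb3 values are below the 99th percentile of the background probe sets, and its other probe set, below the floor, differed by -0.19.

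**Figure D2:**
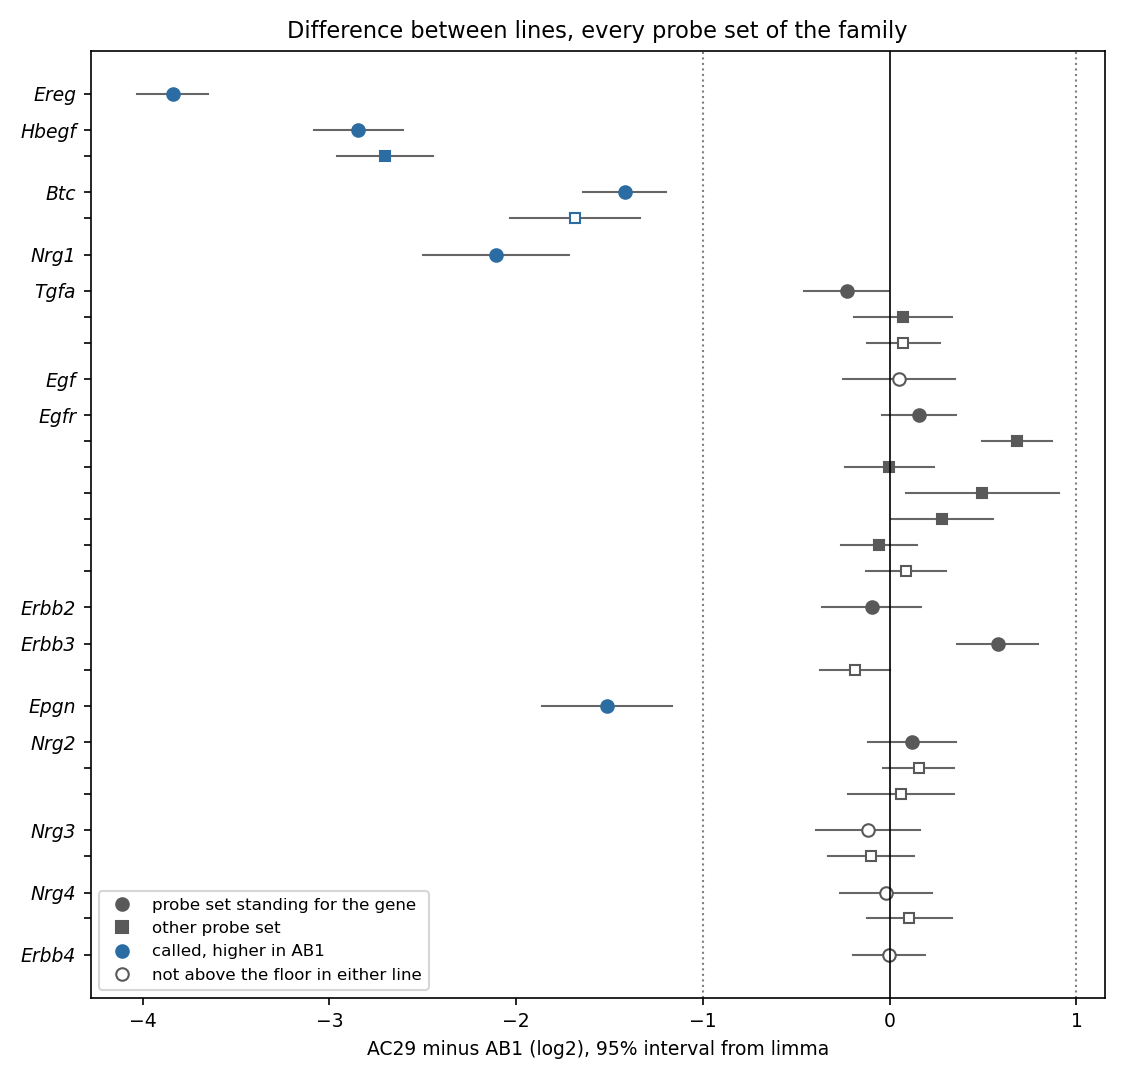
AC29 minus AB1 difference (x axis, log2) with its 95% interval from limma for every probe set of the members and of the other EGF family genes (y axis); circles stand for a gene, squares are its other probe sets, open symbols stayed under the floor in both lines, and dotted lines mark -1 and 1. The 6 blue symbols of Ereg, Hbegf, Btc and Nrg1 and the blue symbol of Epgn lie left of -1, and every receptor probe set lies between the dotted lines.

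At the level of probe sets, with p-values adjusted over 45037 of them, 6 of the 20 member probe sets were called higher in AB1 and 0 higher in AC29, against 4.48% and 4.21% of all probe sets. Of the family genes outside the members, Epgn, which encodes epigen, another ligand of Egfr, read 5.01, 4.78 and 4.58 in AC29 and 6.18, 6.61 and 6.12 in AB1. It was below the floor on the AC29 arrays and close to it in AB1, and it was called higher in AB1 at least 1.17-fold (difference -1.51, limma adjusted p = 4.25e-05). Nrg3, Nrg4 and Erbb4, the remaining receptor of the neuregulins, stayed under the floor in both lines. Nrg2 read 6.06 ± 0.11 in AC29 and 5.94 ± 0.15 in AB1 (SD, n = 3 each), at the floor in both lines.

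Epgn, Ereg, Areg and Btc follow each other on mouse chromosome 5, with only non-coding genes between them, in the RefSeq gene table (GRCm38.p6). The 3 measured genes of this cluster were all higher in AB1. The promoters of Btc and Epgn are shown because these cluster genes were higher in AB1 together and their windows are in the RefSeq table. Each is the 250 bases before the start, from Btc at chr5:91402995-91403244 on the minus strand and Epgn at chr5:91027267-91027516 on the plus strand, written 5′ to 3′ with capitals for a match to a searched motif.
Btc: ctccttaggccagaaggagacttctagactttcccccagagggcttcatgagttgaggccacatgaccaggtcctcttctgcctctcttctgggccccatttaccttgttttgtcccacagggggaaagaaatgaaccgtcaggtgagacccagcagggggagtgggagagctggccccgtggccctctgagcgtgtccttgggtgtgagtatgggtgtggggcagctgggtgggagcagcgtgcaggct
Epgn: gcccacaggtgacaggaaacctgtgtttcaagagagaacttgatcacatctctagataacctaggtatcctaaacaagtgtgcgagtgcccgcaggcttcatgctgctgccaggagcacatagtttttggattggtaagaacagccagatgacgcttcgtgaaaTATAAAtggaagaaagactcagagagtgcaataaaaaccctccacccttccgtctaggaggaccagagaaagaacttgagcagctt
The motifs searched on both strands were TGANTCA (bound by AP-1), TGACGTCA (the CRE, bound by CREB), GGAATG (bound by TEAD factors) and TATAAA (the TATA box). No matches of different motifs overlapped in these windows. The motifs occur in 6.75%, 1.55%, 12.6% and 12.4% of 32851 promoter windows of the same length. Epgn held TATAAA between 86 and 81 bases before its start, and Btc held none of these letters. The GC content was 59.6% for Btc and 46.8% for Epgn. Ereg, Hbegf, Nrg1 and Erbb3 are not in the promoter table. The search covered 10 family genes, and matches were also found in 2 windows not shown. Areg, which was not analysed here, held TGACGTCA between 61 and 54 and TATAAA between 31 and 26 bases before its start. Erbb2 held GGAATG between 88 and 83 bases before its start.

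The other measured genes around the cluster were 17, with 8 on either side of it and 1 inside it. Of the 17, 4 were called higher in AC29 and 0 higher in AB1, against 5.12% and 5.82% of all genes. Neither line exceeded the floor for 8 of the 17. At an unadjusted p under 0.05 in limma, 10 were higher in AC29 and 1 was higher in AB1, against 22.3% and 22.9% of all genes. With genes of mean signal above the floor only, which leaves out Cxcl3 and Cdkl2, 2 were called. The median difference of the 17 genes was 0.28. Parm1, the next measured gene after Btc, read 8.27, 8.54 and 8.69 in AC29 and 4.96, 5.38 and 5.48 in AB1, at least 5.38-fold higher in AC29 (difference 3.23, limma adjusted p = 2.64e-07). Cxcl5, a neutrophil-attracting chemokine, read 9.26, 9.38 and 8.92 in AC29 and 4.11, 3.95 and 4.79 in AB1, at least 8.66-fold higher in AC29. Mthfd2l, a mitochondrial folate enzyme just before Epgn, differed by -0.85, or by -0.17 on the mean of its probe sets, and did not pass. Another of its probe sets gave 1.48, which passes in the opposite direction, so its direction is uncertain. Cdkl2, a kinase, was higher in AC29 at least 1.66-fold by a probe set of shared sequence and differed by 0.05 without it. Cxcl3, the other gene called higher in AC29, stayed under the floor in both lines.

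**Figure D3:**
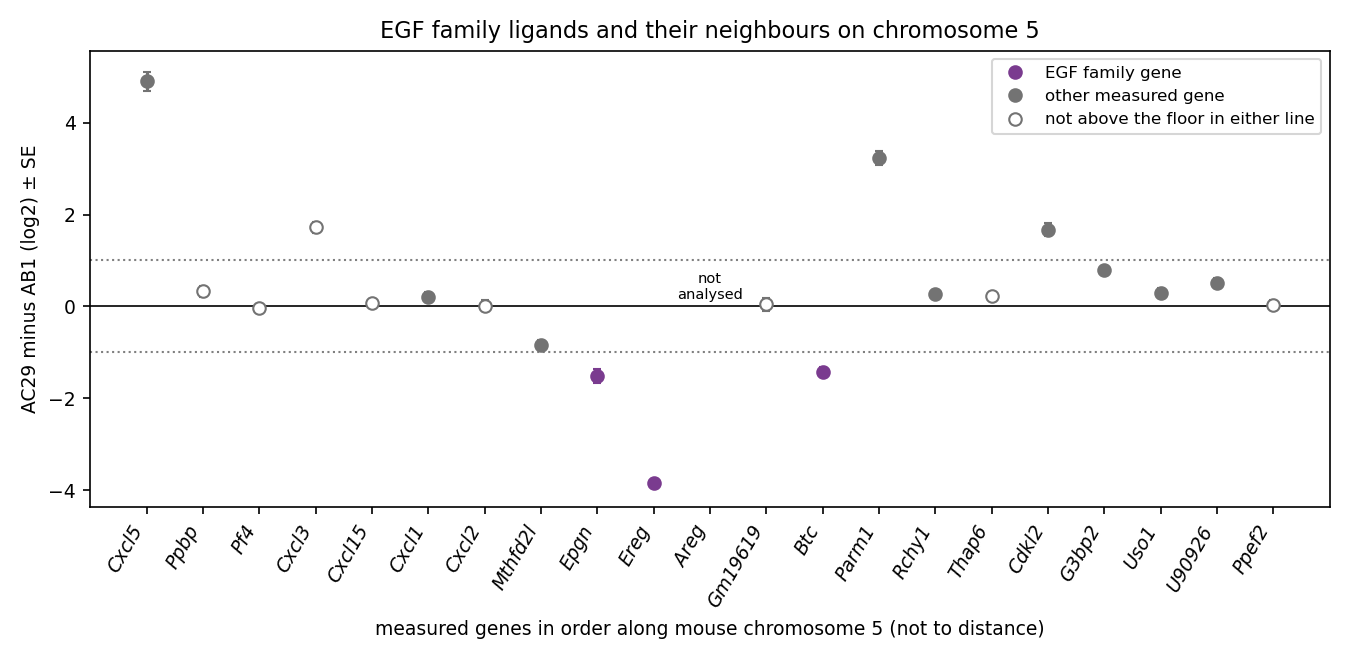
AC29 minus AB1 difference (y axis, log2, with the standard error) of the measured genes in their order along mouse chromosome 5, not to distance; EGF family genes are purple, open symbols stayed under the floor in both lines, and dotted lines mark -1 and 1. Epgn, Ereg and Btc lie below -1, while Cxcl5, Parm1 and Cdkl2 lie above 1.

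Genes for proteins that cut or activate the ligands, and for inhibitors of the cutting, differed in both directions. Of 19 measured genes of ligand processing, 3 were called higher in AC29 and 4 higher in AB1, which is 36.8% of the list against 10.9% of all genes, and the list's median difference was 0.07. Adam17, the main sheddase of Tgfa, Areg, Ereg and Hbegf, read 8.97, 8.82 and 8.99 in AC29 and 9.18, 9.37 and 9.21 in AB1 and did not pass (difference -0.32, limma adjusted p = 0.0200). Adam10, a sheddase of Btc and Egf, was 2.45-fold higher in AC29 (difference 1.29, limma adjusted p = 3.00e-05), but was under the 2-fold minimum on the mean of its probe sets (0.97). Rhbdf2, a rhomboid-like protein that brings Adam17 to the cell surface, was 2.23-fold higher in AC29. Timp3, an inhibitor of Adam17 and Adam10, was 98.8-fold higher in AC29 (13.28 ± 0.18 in AC29 and 6.66 ± 0.40 in AB1, SD, n = 3 each). The AB1 values of Timp3 lie under the 99th percentile of the background probe sets. Adam19, which can cut neuregulin, read 5.01, 4.81 and 4.92 in AC29 and 9.13, 9.15 and 9.07 in AB1, at least 8.26-fold higher in AB1. Adam12, which can cut Hbegf, was at least 4.29-fold, the convertase Furin 3.30-fold and the metalloprotease Adam8 2.31-fold higher in AB1. Adam9 and Rhbdf1, the brightest of the list that were not called, differed by -0.03 and 0.81.

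Genes for partners of ligands and receptors at the membrane also differed in both directions. Of 12 measured genes, 3 were called higher in AC29 and 3 higher in AB1, 50% of the list against 10.9% of all genes. The list's median difference was 0.19. The heparan sulfate proteoglycan Sdc1 was 2.63-fold, the tetraspanin Cd82 2.98-fold and the surface glycoprotein Cd24a at least 15.2-fold higher in AC29, but Cd82 was under the minimum on the mean of its probe sets (0.88). Another heparan sulfate proteoglycan, Gpc1, was 2.70-fold higher in AB1, as were the integrin chain Itga6 (2.46-fold) and the hyaluronan receptor Cd44 (2.03-fold). The fold of Cd44 fell under the minimum without AB1 replicate 5 (-0.998) or AC29 replicate 15 (-0.975), and with array weights (-0.984). Cd9, a tetraspanin that binds membrane-anchored Hbegf, read 11.80 ± 0.22 in AC29 and 12.72 ± 0.04 in AB1 (SD, n = 3 each); its difference of -0.92 stayed under the minimum but passed without AC29 replicate 14 (-1.04). Cav1, a scaffold of caveolae, differed by 0.70 and was not called.

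Genes for several attenuators of ERBB signalling were higher in AB1 with the ligands. Of 17 measured attenuators, 2 were called higher in AC29 and 5 higher in AB1, 41.2% of the list against 10.9% of all genes. The list's median difference was -0.40. Errfi1, which encodes an inhibitor that binds the kinase domain of ERBB receptors, read 8.89, 8.64 and 8.50 in AC29 and 12.42, 12.39 and 12.14 in AB1. It was 12.4-fold higher in AB1 (difference -3.63, limma adjusted p = 2.56e-08). Lrig1, a membrane protein that lowers the amount of ERBB receptors, read 7.39, 7.24 and 7.30 in AC29 and 10.39, 10.41 and 10.20 in AB1, 8.12-fold higher in AB1. All AB1 arrays were far above all AC29 arrays for both genes. Another Lrig1 probe set, under the floor in both lines, differed by 0.10, and the mean of its probe sets by -1.92. Spry2, an inhibitor of the RAS and ERK pathway, was 6.18-fold and the endocytic adaptor Sh3kbp1 2.67-fold higher in AB1. On the mean of its probe sets Spry2 was 2.48-fold higher in AB1. The AC29 mean of Spry2 was 6.22, near the floor. Socs3, a feedback inhibitor of cytokine signalling, was 2.39-fold higher in AC29. The phosphatase Ptprj read 6.83, 6.89 and 7.54 in AC29 and 6.06, 6.03 and 6.09 in AB1, where the mean was under the floor, and its difference of 1.03 was 0.80 without AC29 replicate 15. The phosphatases Ptpn1 and Ptpn2 differed by -0.77 and 0.64 and were not called.

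Of 42 adaptors and kinases in the list, 34 were measured, with 6 called higher in AC29 and 2 higher in AB1. That is 23.5% of those measured against 10.9% of all genes, and their median difference was 0.11. The exchange factor Vav2 was 3.46-fold (8.54 ± 0.34 in AC29 and 6.75 ± 0.24 in AB1, SD, n = 3 each), the transcription factor Stat3 3.32-fold and the docking protein Gab1 2.49-fold higher in AC29. On the mean of their probe sets Vav2 was 2.04-fold higher in AC29 and Stat3 was under the minimum (0.94). Vav3 was at least 1.55-fold higher in AC29, with a difference of 1.11 that was 0.91 without AC29 replicate 13. Rasa1, a GTPase activating protein of RAS, was 2.27-fold higher in AB1. The docking protein Gab2 read 6.18, 5.58 and 6.28 in AC29, with a mean under the floor, and 7.76, 7.75 and 7.42 in AB1. It was called higher in AB1 (difference -1.63), but the difference was -0.58 on the mean of its probe sets and -0.12 without probe sets of shared sequence. The adaptors Crk and Eps8 differed by 0.15 and -0.46 and were not called.

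Genes that ERK signalling is known to induce were mostly higher in AB1. Of 21 measured genes, 12 were called higher in AB1 and 0 higher in AC29, 57.1% of the list against 10.9% of all genes. The list's median difference was -1.30. At an unadjusted p under 0.05 in limma, 2 were higher in AC29 and 16 in AB1, against 22.3% and 22.9% of all genes. The 2 higher in AC29 were Fos (difference 0.41) and Dusp4 (0.36), and neither was called. The immediate early transcription factor Egr1 read 6.58, 6.19 and 6.40 in AC29 and 11.14, 11.05 and 10.73 in AB1, 23.9-fold higher in AB1 (difference -4.58, limma adjusted p = 1.31e-08). Etv5, an ETS transcription factor, was 11.8-fold, the feedback inhibitor Spry4 6.33-fold and the immediate early gene Ier2 4.80-fold higher in AB1. In AC29 the means of Egr1 (6.39), Etv5 (6.49) and Spry4 (6.22) lie under the 99th percentile of the background probe sets, 7.23. Their AC29 levels are therefore close to background. Ccnd1, which encodes cyclin D1, and Ier3 differed by -0.73 and -0.58 and were not called. The lists were chosen with earlier results of these data known, so their counts are a description and not independent evidence.

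**Figure D4:**
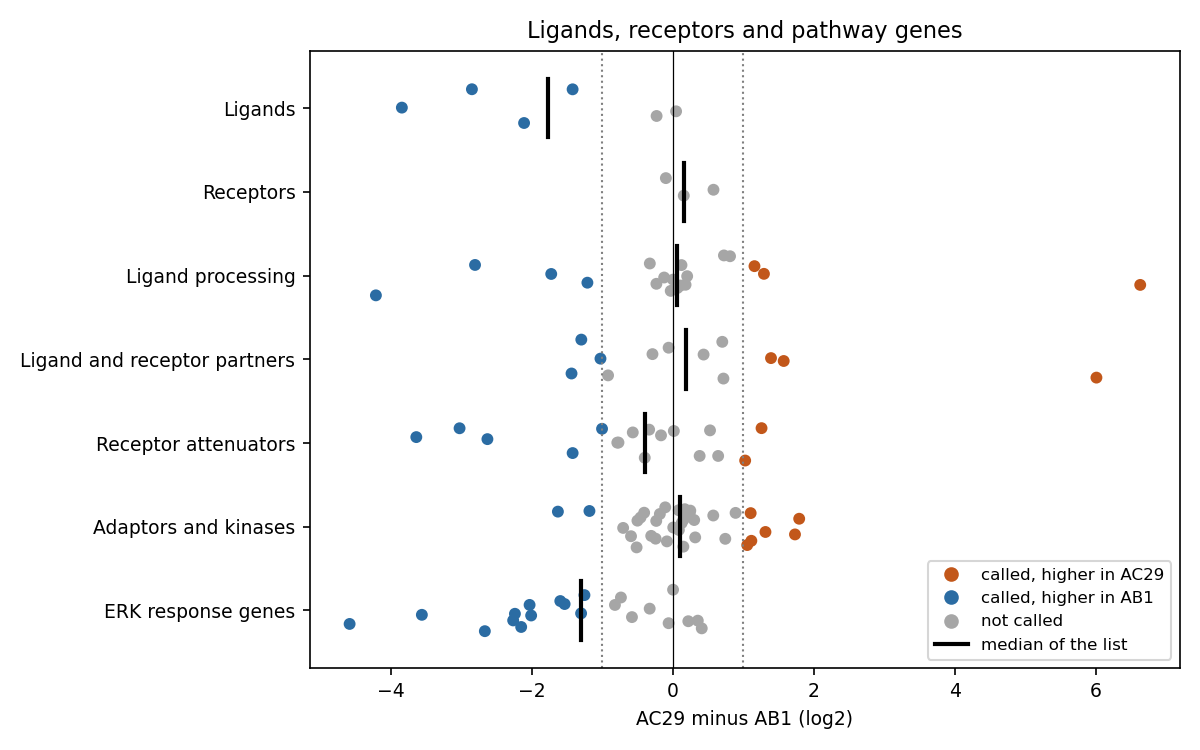
AC29 minus AB1 difference (x axis, log2) of every measured gene of the ligands, receptors and 5 pathway lists (y axis), orange where called higher in AC29, blue where called higher in AB1 and grey where not called; black bars are medians of the lists and dotted lines mark -1 and 1. The medians lie at -1.76 for the ligands, 0.16 for the receptors and -1.30 for the ERK response genes, and every list has points in both directions.

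For each called member, the 3 genes with the most alike pattern were found among 11264 genes above the floor in at least 1 line, by the root mean square difference of gene-centred log2 values over the 6 arrays. Nearest to Ereg were Hmga2-ps1 at 0.046, Tcim at 0.067 and Rcbtb2 at 0.068. Nearest to Hbegf were Cenpv at 0.085, Fzd5 at 0.11 and Rangrf at 0.12. Nearest to Nrg1 were Srgap3 at 0.096, Col10a1 at 0.12 and Dcxr at 0.14, and nearest to Btc were Ddhd1 at 0.051, Slc19a2 at 0.071 and Aen at 0.071. With 3 arrays in each of 2 lines, such a likeness rests mainly on the size of the difference between the lines.

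The labelled cell type was checked by markers. Of 10 mesothelial genes, 10 were above the floor in AC29 and 5 in AB1. Of the 10, 8 were called higher in AC29, against 5.12% of all genes. The mean of the list ran between 10.41 and 10.51 over the AC29 arrays and between 6.71 and 6.84 over the AB1 arrays. Wt1, a mesothelial transcription factor, Upk3b, Krt8, Lrrn4 and Muc16 were not above the floor in AB1, while Msln, which encodes mesothelin, read 10.41 ± 0.23 in AC29 and 9.67 ± 0.10 in AB1 (SD, n = 3 each). Of 6 fibroblast genes 4 were above the floor in each line and 3 were called higher in AC29, against 5.12% of all genes. Among the called genes, Lum had an AC29 mean of 6.00, under the floor, and no fold is given. Postn, above the floor in AB1 only, went the other way (-0.60) and was not called. The list means ran between 8.55 and 8.71 in AC29 and between 6.97 and 7.06 in AB1. These markers move with the same contrast as the ligands, and their part in the ligand differences was not tested. None of 7 leukocyte genes and none of 6 endothelial genes was called in limma, against 10.9% of all genes. At that share, lists this short can hold no called gene, so the lack of calls says little about these cell types. At an unadjusted p under 0.05 in limma there were 2 leukocyte and 0 endothelial genes. The shares of all genes were 22.3% toward AC29 and 22.9% toward AB1. Above the floor were 3 of the leukocyte genes and 1 of the endothelial genes in AC29, and as many in AB1. These were Cd3e, Csf1r and Lyz2 in AC29, Cd3e, Csf1r and Cd68 in AB1, and Kdr in both lines. The defining markers Ptprc, Adgre1, Pecam1 and Cdh5 stayed under the floor in both lines. For those 2 lists the array means were 5.44 to 5.60 and 4.76 to 4.84 in AC29 and 5.52 to 5.56 and 4.83 to 4.91 in AB1.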

How the data were processed

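RNA of 3 AC29 and 3 AB1 flasks was measured on 6 arrays. The authors deposited 1 log2 intensity for each of 45101 probe sets on each array. GCOS, RMA and Partek 6.4 appear in the submitters' processing notes, which do not say what each did. The log2 scale was taken from the notes and from the values, whose array medians ran between 5.76 and 5.81. In such array values, differences of very dim and very bright probe sets can be understated. Depth does not apply to array values, and precision is limited by the number of arrays.

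The array's 64 control probe sets were left out. Of the others, the platform annotation gave a single gene symbol to 34945, more than 1 to 932 and none to 9160; 34741 of the single-symbol probe sets matched RefSeq by Entrez identifier. Differences between the lines were estimated with limma 3.58.1 under R 4.3.3 (lmFit, then eBayes, no covariate, 2-sided tests, 4 residual and 8.92 moderated degrees of freedom) on 45037 probe sets, and p-values were adjusted by Benjamini-Hochberg over 18193 genes. Folds come from differences of mean log2 values, against the floor where no array of a line exceeded it. The fit was tested on simulated data. Promoter sequences are RefSeq's, GRCm38.p6, and 6 of the 10 members matched.

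Named were all members and other family genes, the called genes of each list with the widest differences (at most 4 in a direction) with its 2 brightest uncalled genes, Rhbdf2, Adam17, Adam10, Errfi1 and Lrig1, the chromosome 5 neighbours and the genes of most alike pattern. Fos and Dusp4 were added as ERK response genes that were higher in AC29. Members and lists were chosen with earlier results of these data known. Alternatives were other normalizations, a filter on dim genes, other choices of probe set, other limma settings, other floors, no minimum difference, and leaving out each array. Other Egfr probe sets were added after seeing the data.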

Additional observations from a re-analysis of the deposited data

How the results depend on the processing

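The 4 members called higher in AB1 and the 0 called higher in AC29 were 4 and 0 under each normalization, filter, probe set choice and limma setting run, and between 4 and 4 and between 0 and 0 with each array left out. Without the minimum difference, 1 member was higher in AC29, and the calls over all genes were 7105, with 3475 toward AC29 and 3630 toward AB1. Over these alternatives the difference of Ereg ran between -3.87 and -3.79, of Hbegf between -2.93 and -2.77, of Nrg1 between -2.28 and -1.92, of Btc between -1.55 and -1.34, of Erbb3 between 0.20 and 0.66, and of Egfr between 0.12 and 0.68. With a floor at the 90th or the 99th percentile, 8 or 6 members were above it in at least 1 line. No paired analysis was possible because the lines share no replicate numbers.

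Apart from Lrig1 and Mthfd2l, sign changes were found among small differences that did not pass. With an array left out, Egf ran between -0.072 and 0.17, Erbb2 between -0.18 and 0.011, Adam9 between -0.11 and 0.030, Erbb4 between -0.044 and 0.045, Nrg3 between -0.19 and 0.012, and Nrg4 between -0.10 and 0.037. With array weights Adam9 gave 0.029 and Nrg4 0.017, with quantile normalization Erbb4 gave 0.014, and on the mean of probe sets Nrg4 gave 0.042. Other Egfr probe sets gave -0.0023 and -0.057. Probe sets whose identifier marks shared sequence include those for several transcripts of a gene. Leaving them out moved Lrig1, a called gene, from -3.02 to 0.10, read by a probe set below the floor. Mthfd2l moved from -0.85 to 1.48 (limma adjusted p = 0.0003565), which passes toward AC29. The attenuators called higher in AB1 became 3. The 4 called neighbours on chromosome 5 became 2 with genes of mean above the floor only, which leaves Cxcl3 and Cdkl2 untested. Without those probe sets Ptpn2 passed (1.25) and Vav3 did not (0.974). On the mean of probe sets the calls of Cd82 (0.88), Cdkl2 (0.72), Gab2 (-0.58) and Ptprj (0.55) were also lost to the minimum difference. Dim values, such as those near or under the floor in AC29 for Btc, Nrg1, Epgn, Spry2, Spry4, Egr1 and Etv5, limit how large a fold can be shown.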
